A study of Mus musculus with 16 samples.

Results

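The metalloproteinases and their inhibitors studied here were the genes whose symbol begins with Mmp, Adam, Adamts, Adamtsl or Timp followed by a number, without Mmp8 and Mmp9. They came to 68 of the 18193 genes on the array: 16 matrix metalloproteinases (MMPs), 28 ADAMs, 15 ADAMTS proteases, 5 ADAMTS-like proteins and 4 tissue inhibitors of metalloproteinases (TIMPs). Another 15 protein-coding RefSeq genes of matching name were not analysed here. The samples were whole cerebella and whole lungs taken from C57BL/6J mice on postnatal day 7. Each organ came from vehicle mice and from mice given dexamethasone, a synthetic glucocorticoid, with 4 Affymetrix arrays in each of the 4 groups (vehicle cerebellum, dexamethasone cerebellum, vehicle lung, dexamethasone lung). For dose, schedule, sex and litter, the sources used here give nothing. The submitters call the arrays of a group biological replicates, and p-values here reflect only how far these samples spread. Within each organ the replicate numbers of vehicle and dexamethasone mice lie in separate ranges, so anything the numbers follow cannot be told apart from treatment.

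MMPs and ADAMTS proteases cut matrix proteins such as collagens and proteoglycans, while most ADAMs sit in the cell membrane and release the outer parts of other membrane proteins. ADAMTS-like proteins share the ADAMTS binding domains but lack the protease domain, and TIMPs bind the active site of the proteases and block it. In the neonatal lung these genes take part in building the alveolar walls, and glucocorticoids are known regulators of that stage.

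Values are log2 intensities after robust multi-array averaging (RMA), and a gene with several probe sets, as 31 of the 68 were, is represented by the brightest. Probe sets of different genes bind differently, so levels are compared between samples and not between genes. A gene is called changed where limma gave a Benjamini-Hochberg adjusted p under 0.05 over all 18193 genes, and errors beside a log2 change are standard errors. Of the 68 genes, 36 had a mean below 7.37, the median of all genes, in each of the 4 groups, and folds of such dim genes understate a change on this scale.

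The organs matched their labels: the mean log2 level of 4 alveolar type 2 markers was 12.82 to 13.56 in lung against 6.58 to 6.95 in cerebellum, and that of 5 granule neuron markers 10.92 to 11.66 in cerebellum against 4.61 to 5.05 in lung. RNA integrity was read from the Gapdh control as the log2 excess of its 3′ over its 5′ probe set, which was 0.84 to 1.04 in vehicle lungs and 0.45 to 0.71 in dexamethasone lungs, without overlap. It was 0.04 to 0.52 in vehicle cerebella and 0.05 to 0.18 in dexamethasone cerebella. The vehicle organs thus did not overlap either. The part of RNA integrity in the lung changes with dexamethasone and in the organ comparison was not tested. In lung, 9 of 9 neutrophil markers rose with dexamethasone, their mean level going from 9.03 to 9.78 up to 10.99 to 11.80, and 7 of 8 macrophage markers rose. By contrast 6 of 8 fibroblast markers, 4 of 5 smooth muscle markers and 7 of 7 proliferation genes fell there. The mean fibroblast level went from 12.23 to 12.41 down to 11.23 to 11.82. Endothelial markers fell in 3 of 6 cases, their mean level going from 10.86 to 11.10 down to 10.43 to 10.64. Alveolar type 1 markers rose in 3 of 5 cases and type 2 markers in 3 of 4. Of all genes, 15.7% rose and 15.5% fell in lung. These values stand beside every lung change below, and their part in those changes was not tested. In whole organs, fewer cells of a type and less RNA per cell cannot be told apart.

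The vehicle groups compare the organs without dexamethasone. Lung had the higher level of 28 of the 68 genes and cerebellum of 15, or 63.2% called, against 57.7% of all genes called in the same comparison, 28% higher and 29.7% lower in lung. The median difference, lung minus cerebellum, was 0.13 on the log2 scale, beside 0.00 over all genes. All 9 listed ADAM sheddases except Adam28 were higher in lung, whereas Adam11, Adam22 and Adam23, which bind partners at synapses without cutting them, were all higher in cerebellum. Adam28 stood at 0.04 by its brightest probe set, but its other probe set, of similar mean level, was called higher in lung at 0.75. Among ADAMTS proteases 9 of 15 were higher in lung and 5 in cerebellum.

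The gelatinase Mmp2, which digests denatured collagen and basement membrane, had the largest excess in lung. It read 11.58, 11.73, 11.41 and 11.79 in vehicle lungs and 7.22, 7.14, 7.21 and 7.52 in vehicle cerebella. The groups lay far apart, and the difference was 20.5-fold (log2 4.36 ± 0.16, limma adjusted p = 3.9e-13). Its membrane-bound activator Mmp14 was 3.91-fold higher in lung. The stromelysin Mmp11 was 11.0-fold higher there, Mmp23 6.91-fold, the versican-cleaving proteases Adamts1 and Adamts9 7.93-fold and 7.74-fold, and the fibrillin-binding Adamts10 5.91-fold.

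The largest difference of all belonged to an inhibitor. Timp4 read 10.42, 10.48, 10.42 and 10.59 in vehicle cerebella and 4.89, 4.65, 4.60 and 5.30 in vehicle lungs, which put it 49.2-fold higher in cerebellum (log2 -5.62 ± 0.15 for lung minus cerebellum, adjusted p = 4.76e-15). The other probe set of Timp4 gave -3.36 and the mean of both -4.49, and the size of the fold is uncertain because the vehicle lungs were dim and no detection call was used. The other inhibitors ran the opposite way: Timp3 was 3.50-fold, Timp2 2.77-fold and Timp1 2.20-fold higher in lung. The membrane-type protease Mmp24, an enzyme of neurons, read 10.02 to 10.35 in vehicle cerebella and 5.25 to 6.11 in vehicle lungs, a 20.1-fold excess in cerebellum (log2 -4.33 ± 0.18). Its other 2 probe sets, both dim, gave -0.98 and -0.38, and the mean of the 3 was -1.89. Adam22, a receptor for the secreted synaptic protein LGI1, was 13.5-fold higher in cerebellum by 1 of its 2 probe sets, with the other at -0.07. The versican-cleaving Adamts20 was 7.66-fold higher there, and Mmp16 and the procollagen-processing Adamts3 were each 4.55-fold higher, Mmp16 by 3 of 4 probe sets and Adamts3 by 1 of 2, with the other at -0.12.

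The broad sheddases were both called higher in lung. Adam17, which releases TNF and EGF receptor ligands, was 2.08-fold higher in lung. Adam10, which cuts Notch, was called 1.27-fold higher in lung, but by 1 of 4 probe sets only, and the mean of its probe sets gave a log2 difference of -0.01 (adjusted p = 0.971).

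**Figure D1:**
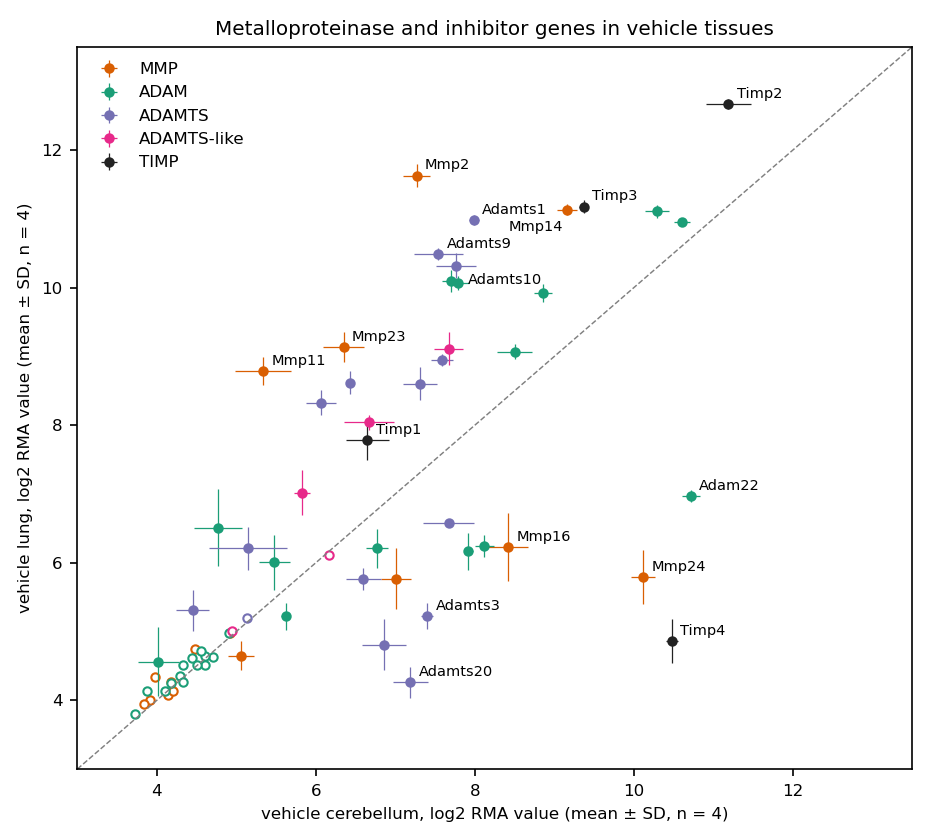
Mean log2 RMA value of each of the 68 genes in vehicle cerebellum (x axis) and vehicle lung (y axis), with SD over 4 arrays for called genes and open circles without error bars for genes not called; the dashed line marks equal values. Timp4 and Mmp24 lie far below the line at 10.48 against 4.86 and 10.12 against 5.79, and Mmp2 lies far above it at 7.27 against 11.63.

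Dexamethasone changed 22 of the 68 genes in lung, 8 upward and 14 downward. That is 32.4%, against 31.2% of all genes called there, 15.7% upward and 15.5% downward, so the number of genes called was near the background. The median change was 0.02, beside 0.05 over all genes. In 22 genes the arrays of the groups did not overlap, 20 of them among the called, and 30.6% of all genes had no overlap. Of the called genes, 17 lay above 7.37 in at least 1 group, and the other 5 (Mmp1a, Mmp3, Adamts7, Adamts19 and Adamtsl5) were dim throughout. Timp4, Adamts4 and Mmp16 passed that line in cerebellum only. Their means in vehicle and dexamethasone lung were 4.86 and 7.32, 6.58 and 5.55, and 6.23 and 5.61. By family, 7 of 15 ADAMTS proteases fell, while 3 of 5 ADAMTS-like proteins rose and 1 fell. All these counts rest on the brightest probe set. A dimmer probe set was called in lung for Mmp19 (0.78), Mmp24 (0.53), Adam33 (-0.53), Adamts6 (-0.91) and Adamts9 (-0.96), which count as not called.

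Among the inhibitors, Timp4 rose most. Its vehicle lungs read 4.89, 4.65, 4.60 and 5.30, and its dexamethasone lungs 7.53, 6.91, 7.39 and 7.44. Every treated lung lay above every vehicle lung and still below every cerebellum, where the lowest array read 10.42. The rise was 5.50-fold (log2 2.46 ± 0.15, adjusted p = 8.51e-09). The other probe set of Timp4 rose by a smaller amount, 0.69 on the log2 scale, and the mean of both rose by 1.58.

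Timp3, the inhibitor that stays bound to the matrix and also blocks ADAM17 and several ADAMTS proteases, read 11.19, 11.16, 11.06 and 11.30 in vehicle lungs. It read 11.78, 11.72, 11.78 and 12.48 in dexamethasone lungs, all above the vehicle arrays. The rise was 1.70-fold (log2 0.76 ± 0.14, adjusted p = 0.000468) and was called in all 4 probe sets, at 0.76 to 1.74. Without array B46, the highest of the treated lungs, it was 0.59.

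Timp2, which helps Mmp14 activate Mmp2 as well as inhibiting both, read 12.63, 12.74, 12.59 and 12.71 in vehicle lungs and 11.88, 11.89, 11.71 and 11.63 in dexamethasone lungs. The groups did not overlap, and the fall was 1.85-fold (log2 -0.89 ± 0.21, adjusted p = 0.00352). It was called in 3 of 6 probe sets, with the others at -0.51, -0.04 and -0.02. The mean of the 6 missed the threshold at -0.44 (adjusted p = 0.0694).

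Timp1, an inhibitor commonly induced in inflamed tissue, read 7.46, 7.65, 7.90 and 8.13 in vehicle lungs and 8.0, 7.61, 8.39 and 9.37 in dexamethasone lungs. These groups overlapped, and the change of 0.56 ± 0.27 was not called (adjusted p = 0.14). It depended on single treated lungs: without B31, the lowest, it was 0.80 and called (adjusted p = 0.0267), and without B46, the highest, it was 0.21 (adjusted p = 0.472).

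**Figure D2:**
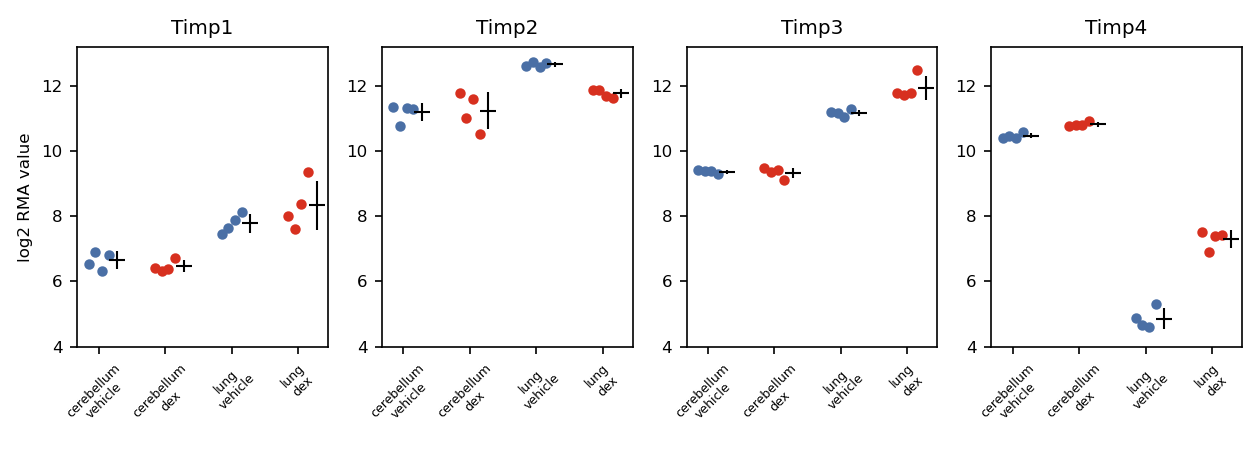
Log2 RMA values of the 4 TIMP genes in each array (blue vehicle, red dexamethasone, 4 arrays a group), with the group mean and SD as black marks. In lung, dexamethasone arrays lie above vehicle arrays for Timp3 and Timp4, below them for Timp2 and across them for Timp1.

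Timp1, Timp3 and Timp4 each lie inside a synapsin gene, Syn1, Syn3 and Syn2, in the RefSeq annotation. Timp4 and its host moved apart in lung: Syn2, a synaptic vesicle protein gene, fell by 0.80 ± 0.22 on the log2 scale (adjusted p = 0.0101), from 6.75 ± 0.23 to 5.95 ± 0.53 (SD, n = 4). Both lung means of Syn2 lay below 7.37, while vehicle cerebella had a mean of 10.62. Syn3 and Syn1 were not called, at 0.27 ± 0.13 and 0.29 ± 0.28. The 250 bases before the start of Timp4 (chr6:115252206-115252455, minus strand, RefSeq on GRCm38.p6) are shown because it was the family's largest rise. They hold no match to the motifs searched, which were the core of the glucocorticoid receptor element (GNACANNNTGTNC), the AP-1 site (TGANTCA), the TATA box (TATAAA) and the GC box (GGGCGG), each on both strands.
Timp4: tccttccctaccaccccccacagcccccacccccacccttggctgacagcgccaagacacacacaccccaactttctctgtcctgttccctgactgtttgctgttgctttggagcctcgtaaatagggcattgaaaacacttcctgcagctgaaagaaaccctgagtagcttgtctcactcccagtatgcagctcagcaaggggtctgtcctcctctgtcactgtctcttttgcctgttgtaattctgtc

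In the MMP family, 2 of 16 genes rose and 3 fell in lung, or 31.2% called, against 31.2% of all genes called there. Mmp14, the membrane-type protease that cuts collagen at the cell surface, read 11.15, 11.21, 11.01 and 11.14 in vehicle lungs and 10.00, 10.12, 9.94 and 10.28 in dexamethasone lungs. No treated lung reached the vehicle range. The fall was 2.06-fold (log2 -1.04 ± 0.10, adjusted p = 5.33e-07) and was called in all 3 probe sets.

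Mmp2, which Mmp14 activates, read 11.58, 11.73, 11.41 and 11.79 in vehicle lungs and 10.98, 11.25, 10.83 and 10.50 in dexamethasone lungs. The groups were separate, with a 1.67-fold fall (log2 -0.74 ± 0.16, adjusted p = 0.00245) called in both probe sets. Together with Timp2, all 3 genes of this activation complex were called lower in lung by the brightest probe set. Timp2 was not called with the mean of its probe sets.

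The membrane-type Mmp16 read 6.01, 6.90, 6.29 and 5.73 in vehicle lungs and 5.52, 5.62, 5.79 and 5.51 in dexamethasone lungs. The groups overlapped, and its call at -0.62 ± 0.21 (adjusted p = 0.0359) came from 1 of 4 probe sets, with others at 0.31 and 0.13. Without vehicle array B14, the highest of them, it was -0.40 and not called.

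Both MMPs called higher were dim. Collagenase Mmp1a read 4.04, 4.01, 3.85 and 4.11 in vehicle and 4.51, 4.54, 4.08 and 4.33 in dexamethasone lungs, a change of 0.36 ± 0.11 (adjusted p = 0.0154) with overlapping arrays. Stromelysin Mmp3 read 4.23, 4.13, 4.06 and 4.16 against 4.27, 4.82, 4.51 and 4.37, a change of 0.35 ± 0.11 (adjusted p = 0.0278). Each call is lost when single arrays are left out: Mmp1a without B19, B28 or B31, at 0.31 to 0.32, and Mmp3 without B14, B19, B22, B31 or B40, at 0.24 to 0.35. Mmp11 and Mmp24, the extremes of the tissue comparison after Mmp2, were not called in either dexamethasone comparison. A dimmer probe set of Mmp24 did pass in lung, at 0.53 ± 0.15 (adjusted p = 0.0156), while the brightest stood at -0.13.

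Of the 28 ADAMs, 1 rose and 2 fell in lung, or 10.7% called, against 31.2% of all genes. Adam12, a protease of developing mesenchyme and muscle, read 10.18, 9.99, 9.97 and 10.13 in vehicle lungs and 7.28, 7.87, 7.16 and 6.52 in dexamethasone lungs. Vehicle lungs stood far above treated lungs, of which 3 lay in the range of the 8 cerebella, 7.15 to 7.94, and B46 lay below it. The fall was 7.25-fold (log2 -2.86 ± 0.20, adjusted p = 3.31e-08), the largest of the 68 genes, and the other probe set fell by 1.21.

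Adam19, a sheddase of neuregulin with a role in heart and mesenchyme development, read 10.07, 10.24, 9.89 and 10.19 in vehicle lungs. It read 9.21, 8.87, 9.37 and 8.74 in dexamethasone lungs, all lower. The fall was 2.07-fold (log2 -1.05 ± 0.13, adjusted p = 1.51e-05), called in both probe sets. No RefSeq promoter of Adam12 was at hand, and of the 3 of Adam19, 1 held an AP-1 match.

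Adam8, an ADAM of neutrophils and macrophages, was the one that rose. It read 7.09, 5.90, 6.18 and 6.88 in vehicle lungs and 8.20, 7.52, 8.51 and 8.90 in dexamethasone lungs, without overlap. The rise was 3.41-fold (log2 1.77 ± 0.28, adjusted p = 0.000128). Neutrophil markers rose in the same lungs, with a median log2 change of 2.18 over the 9 genes, and macrophage markers with a median of 1.03 over 8. The part of these cells in the rise of Adam8 was not tested. The broad sheddases were not called: Adam10 changed by -0.24 ± 0.11 (adjusted p = 0.109) and Adam17 by 0.13 ± 0.10 (adjusted p = 0.349). Without array B40, Adam10 was called at -0.33 (adjusted p = 0.0247), but its other probe sets stood at 0.38, 0.02 and -0.04 and the mean of all 4 at 0.03 (adjusted p = 0.837).

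The ADAMTS proteases moved downward where they were called, in 7 of 15 cases or 46.7%, against 15.5% of all genes called lower in lung. Their median change in lung was -0.35, and it was -0.64 over the 7 that cleave proteoglycans, of which Adamts1, Adamts4, Adamts5 and Adamts8 fell. Adamts5, the main aggrecanase of mouse cartilage, read 8.69, 8.85, 8.59 and 8.28 in vehicle lungs and 7.38, 7.30, 7.28 and 7.60 in dexamethasone lungs. Treated lungs came down to the level of the cerebella, at 7.01 to 7.67. The fall was 2.32-fold (log2 -1.21 ± 0.16, adjusted p = 2.72e-05), called in 3 of 4 probe sets, and the remaining probe set stood at 0.22.

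Adamts4, the other aggrecanase, read 6.57, 6.61, 6.50 and 6.62 in vehicle lungs and 5.30, 5.49, 5.45 and 5.95 in dexamethasone lungs. The groups were apart, with a 2.04-fold fall (log2 -1.03 ± 0.16, adjusted p = 0.000124), and the other probe set was also called, at -1.53. Adamts1 read 10.93, 10.93, 10.97 and 11.08 against 10.49, 10.14, 10.41 and 10.33, also apart, and fell 1.55-fold (log2 -0.64 ± 0.10, adjusted p = 0.000105). Adamts1 and Adamts5 are adjacent protein-coding genes on chromosome 16, and both fell. Adamts8, an inhibitor of vessel growth in culture, fell 1.82-fold, from 8.33 ± 0.18 to 7.47 ± 0.54 (SD, n = 4), while its neighbour Adamts15 on chromosome 9 was not called.

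Among the other ADAMTS proteases, Adamts7, which cuts cartilage oligomeric matrix protein, read 6.02, 6.31, 5.92 and 6.59 in vehicle lungs and 5.13, 4.78, 5.02 and 5.11 in dexamethasone lungs. It fell 2.29-fold (log2 -1.20 ± 0.19, adjusted p = 0.000161) without overlap. Adamts10 fell 1.64-fold, from 10.32 ± 0.18 to 9.61 ± 0.20 (SD, n = 4). The dim Adamts19 fell 1.67-fold, from 5.31 ± 0.30 to 4.57 ± 0.22 (SD, n = 4). These falls accompanied lower fibroblast and smooth muscle markers, with medians of -0.87 and -1.21, whose part was not tested.

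ADAMTS-like proteins, several of which attach to fibrillin microfibrils, were called in 4 of 5 cases, or 80%, against 31.2% of all genes. Adamtsl4, needed to anchor the lens and known to bind fibrillin, read 6.66, 7.05, 6.92 and 7.46 in vehicle lungs and 8.95, 8.55, 8.83 and 9.46 in dexamethasone lungs. All treated lungs were higher, by 3.80-fold (log2 1.93 ± 0.19, adjusted p = 9.06e-07).

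Adamtsl2, a microfibril protein mutated in geleophysic dysplasia, read 8.80, 9.15, 9.12 and 9.38 against 10.30, 10.21, 10.13 and 9.76 in dexamethasone lungs. It rose 1.98-fold (log2 0.99 ± 0.15, adjusted p = 8.99e-05) without overlap. The dim Adamtsl5 read 4.82, 4.85, 5.43 and 4.95 against 5.74, 5.95, 5.63 and 5.94 and rose 1.74-fold (log2 0.80 ± 0.13, adjusted p = 0.000184) by 1 of 2 probe sets, with the mean of both at 0.44.

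Adamtsl3 went the other way. It read 7.94, 7.97, 8.04 and 8.20 in vehicle lungs and 6.69, 7.04, 6.61 and 5.90 in dexamethasone lungs, and every treated lung was lower. The fall was 2.79-fold (log2 -1.48 ± 0.20, adjusted p = 2.71e-05).

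**Figure D3:**
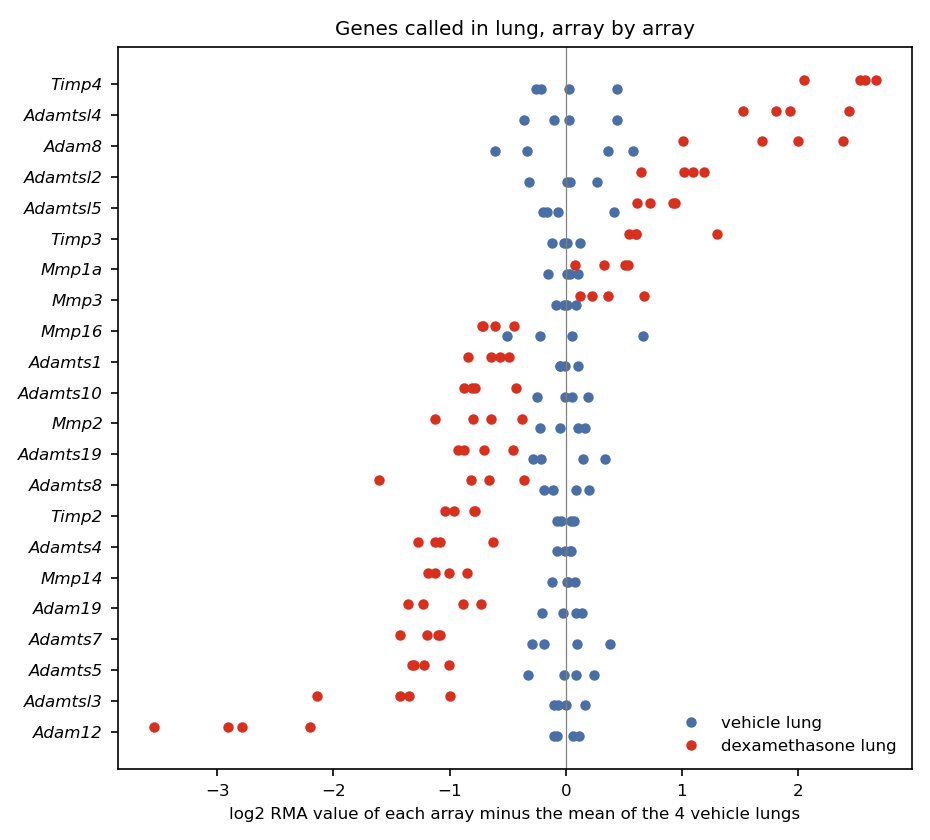
Log2 RMA value of each lung array minus the mean of the 4 vehicle lungs (x axis) for the 22 genes called in lung (blue vehicle, red dexamethasone). The arrays of the groups are separate for 20 genes, from Timp4 at the top to Adam12 at the bottom, and overlap for Mmp1a and Mmp16.

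In cerebellum, 2 of the 68 genes were called, Adamts12 lower and Adamts4 higher. That is 2.94%, against 4.8% of all genes, 2.84% upward and 1.97% downward. The median change was -0.02, beside 0.01 over all genes. At an unadjusted limma p under 0.05 there were 12 genes, where 16.98% of all genes passed, and 9 had no overlap between the groups, where 12.6% of all genes had none.

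Adamts12, which like Adamts7 cuts cartilage oligomeric matrix protein, read 7.46, 7.72, 7.47 and 7.70 in vehicle cerebella and 6.58, 6.67, 6.73 and 6.68 in dexamethasone cerebella. Every treated array lay below every vehicle array. The fall was 1.90-fold (log2 -0.92 ± 0.12, adjusted p = 0.00031). The other probe set, at a mean of 3.87 over the 16 arrays, stood at 0.04, and the mean of both at -0.44 was called. Fibroblast markers also fell in 3 of 8 cases and endothelial markers in 4 of 6, and the mean endothelial level went from 7.79 to 8.12 down to 7.06 to 7.27, a part not tested.

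Adamts4 read 8.07, 7.32, 7.54 and 7.74 in vehicle cerebella and 8.59, 8.29, 8.07 and 8.51 in dexamethasone cerebella. The groups met at 8.07 without overlapping. The rise was 1.62-fold (log2 0.69 ± 0.16, adjusted p = 0.0187). The second probe set stood at 0.11, and the call was lost with the mean of both (0.40, adjusted p = 0.334). It was also lost with only the cerebellar arrays in the fit (0.69, adjusted p = 0.0519). Leaving out B39, B52, B79 or B80 lost it too, at 0.58 to 0.65. Oligodendrocyte markers were called higher in 2 of 4 cases in the same comparison, and their part was not tested.

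The inhibitors gave no call in cerebellum. Timp4 read 10.76, 10.80, 10.80 and 10.93 with dexamethasone, above the vehicle arrays at 10.42 to 10.59, but its change of 0.34 ± 0.15 had an adjusted p of 0.233. It passed with only the cerebellar arrays in the fit (adjusted p = 0.0467), with the mean of its probe sets (0.41, adjusted p = 0.00715) and by its second probe set (0.49, adjusted p = 0.0312). Timp1, Timp2 and Timp3 changed by -0.19 ± 0.27, 0.04 ± 0.21 and -0.03 ± 0.14.

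Adamts1 read 8.36, 8.36, 8.08 and 8.49 in dexamethasone cerebella against 8.0, 8.01, 7.90 and 8.05, without overlap, and its change of 0.33 ± 0.10 missed the threshold (adjusted p = 0.0654). It passed without array B50, at 0.41 (adjusted p = 0.0297). Mmp2 changed by -0.45 ± 0.16 (adjusted p = 0.15), with no overlap, and Mmp14 by -0.21 ± 0.10 (adjusted p = 0.259). Adam10 and Adam17 were at -0.07 ± 0.11 and -0.01 ± 0.10.

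The test of the difference between the organs, lung effect minus cerebellum effect, called 17 of the 68 genes, 7 with the more positive effect in lung and 10 with the more negative. That is 25%, against 21.3% of all genes, 9.85% and 11.5% in the 2 directions. Adam12 differed most, by -2.52 ± 0.28 (adjusted p = 1.41e-05). Its cerebella read 7.15 to 7.64 with dexamethasone and 7.65 to 7.94 with vehicle, a change that was not called at -0.34 ± 0.20. Its second probe set gave a difference of -1.05 (adjusted p = 0.0605).

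Adamts4 was called in opposite directions, up in cerebellum and down in lung, with a difference of -1.72 ± 0.23 (adjusted p = 6.38e-05) that was also called by its second probe set at -1.64. Adamts1 differed by -0.97 ± 0.14, Adamts5 by -1.23 ± 0.23, Adam19 by -0.98 ± 0.19, Mmp14 by -0.83 ± 0.13 and Adamtsl3 by -1.65 ± 0.28. On the positive side stood Adamtsl4 at 2.04 ± 0.26, Adam8 at 1.71 ± 0.39, Adamtsl2 at 1.04 ± 0.21, Adamtsl5 at 0.82 ± 0.19 and Timp3 at 0.79 ± 0.20.

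Timp4 differed by 2.12 ± 0.21 (adjusted p = 5.16e-06) by its brighter probe set, but by 0.21 ± 0.17 (adjusted p = 0.478) by the other, while the mean of both, 1.16, was called. Mmp2, called lower in lung alone, did not show a difference between organs past the threshold, at -0.29 ± 0.23. The same held for Timp1 at 0.75 ± 0.39. The differences of Timp2 and Mmp16, -0.93 ± 0.29 and -0.97 ± 0.30, were called by 1 probe set each. The difference of Adamts12, 0.61 ± 0.17, came with a fall in cerebellum and a change of -0.31 ± 0.12 in lung that was not called.

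**Figure D4:**
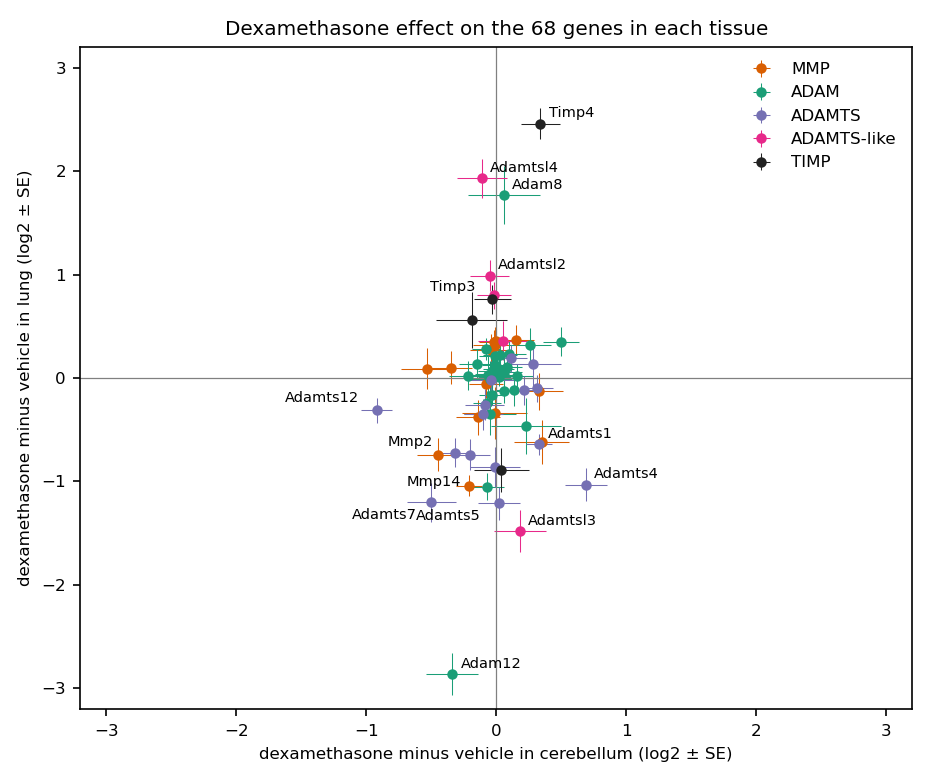
Log2 change with dexamethasone in cerebellum (x axis) and in lung (y axis) for the 68 genes, with standard errors of the fit; both axes have the same scale. Points spread from -2.86 to 2.46 along the lung axis and from -0.92 to 0.69 along the cerebellum axis, with Adamts4 at lower right and Adamts12 at left.

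Other genes that act on these proteases were followed through 33 genes of a separate list of inhibitors, activators and partners. In lung 7 rose and 7 fell, or 42.4%, with a median of 0.12, beside 31.2% of all genes called and a median of 0.05. The largest fall was that of A2m, alpha-2-macroglobulin, which traps proteases of all classes in the extracellular fluid. It read 8.13, 8.29, 8.14 and 7.93 in vehicle lungs and 5.51, 6.16, 5.76 and 5.19 in dexamethasone lungs, far apart, and fell 5.54-fold (log2 -2.47 ± 0.23, adjusted p = 6.97e-07).

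Thbs2, thrombospondin 2, which carries Mmp2 to its clearance receptor, fell 5.26-fold by its brightest probe set and was called lower in all 3. By the brightest it went from 7.92, 8.06, 7.66 and 7.98 to 5.82, 5.60, 5.48 and 5.13. Thbs2 was also the only listed gene called in cerebellum, where it fell 1.53-fold (log2 -0.62 ± 0.15, adjusted p = 0.0214) by 1 of 3 probe sets. The proprotein convertase Pcsk5 fell 2.12-fold in lung and the ADAM-like Adamdec1 1.88-fold, the latter with overlapping arrays. Plaur, the urokinase receptor, rose 2.23-fold. Tspan33 and Tspan15, tetraspanins that escort Adam10 to the membrane, rose 2.18-fold and 1.51-fold, Tspan15 with overlapping arrays, and Thbs1 rose 1.53-fold by 1 of 2 probe sets.

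RefSeq promoters were found for 40 of the 68 genes, 45 in all, and the motif search covered the 250 bases before each start. The glucocorticoid receptor core was found in 0 of the 45 and in 0.387% of all 32851 promoters of the table. AP-1 was present in 22.2% against 6.75% of all promoters, the TATA box in 24.4% against 12.4% and the GC box in 42.2% against 32.7%. A match is a run of letters and not a measured binding site.

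Promoters of genes that moved in lung are printed to show how they differ in these letters, with GC boxes and TATA boxes in capitals. They are Adamtsl4, which rose (chr3:95687918-95688167, minus strand), Mmp14, which fell (chr14:54431348-54431597, plus strand), and Adamts1, which fell (chr16:85803114-85803363, minus strand), all on GRCm38.p6. Adamts1 has a TATA box at bases -32 to -27 with a GC box shortly after it, while Mmp14 has a pair of adjoining GC boxes at -19 to -8 and no TATA box.
Adamtsl4: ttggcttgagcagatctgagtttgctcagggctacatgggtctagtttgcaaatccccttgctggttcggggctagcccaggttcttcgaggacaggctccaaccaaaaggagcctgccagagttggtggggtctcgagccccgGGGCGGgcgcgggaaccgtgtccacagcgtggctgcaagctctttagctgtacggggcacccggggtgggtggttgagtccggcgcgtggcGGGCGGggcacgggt
Mmp14: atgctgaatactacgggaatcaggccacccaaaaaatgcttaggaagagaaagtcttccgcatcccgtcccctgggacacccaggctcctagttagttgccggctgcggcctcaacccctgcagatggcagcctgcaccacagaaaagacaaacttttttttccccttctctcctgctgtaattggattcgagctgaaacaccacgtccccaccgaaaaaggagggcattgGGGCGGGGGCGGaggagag
Adamts1: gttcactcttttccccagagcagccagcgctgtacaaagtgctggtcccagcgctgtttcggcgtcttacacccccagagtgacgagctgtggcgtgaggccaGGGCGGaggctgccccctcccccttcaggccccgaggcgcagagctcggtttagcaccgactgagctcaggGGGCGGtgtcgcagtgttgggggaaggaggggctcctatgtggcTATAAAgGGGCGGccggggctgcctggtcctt

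The AP-1 matches lay mostly in the MMP genes of chromosome 9. Mmp13, Mmp12, Mmp1b, Mmp3, Mmp1a and Mmp10 follow each other there as adjacent protein-coding genes, and Mmp20 and Mmp7 form another adjacent pair. All 8 had an AP-1 match in a promoter and 7 had both AP-1 and a TATA box, whereas 2 of the other 32 genes with a promoter, Adam19 and Adam25, had AP-1, 4 had a TATA box and 19 had a GC box. Of those 4, Adam6a and Adam6b matched on the opposite strand (TTTATA), beginning at bases -104 and -205. The TATA box after AP-1 began at -58 (Mmp20) to -7 (Mmp3), so its place before the start varied. Where both were present, the first base of AP-1 lay 19 bases (Mmp13) to 45 bases (Mmp1a) before the first base of the TATA box.

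The last 110 bases before the start are shown for 4 of these genes, with AP-1 and TATA box matches in capitals. On GRCm38.p6 and the plus strand they are Mmp1a (chr9:7464031-7464140), Mmp3 (chr9:7445712-7445821), Mmp10 (chr9:7502232-7502341) and Mmp13 (chr9:7272404-7272513). In these organs all 8 genes of the chromosome 9 group were dim, and the 2 called in lung were Mmp1a and Mmp3, with the small rises given above.
Mmp1a: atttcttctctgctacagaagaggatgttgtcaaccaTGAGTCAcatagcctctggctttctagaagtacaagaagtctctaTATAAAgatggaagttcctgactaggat
Mmp3: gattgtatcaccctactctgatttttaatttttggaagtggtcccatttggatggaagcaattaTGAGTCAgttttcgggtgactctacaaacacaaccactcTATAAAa
Mmp10: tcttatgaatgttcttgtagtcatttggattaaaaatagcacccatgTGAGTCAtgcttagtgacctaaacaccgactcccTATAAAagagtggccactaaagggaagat
Mmp13: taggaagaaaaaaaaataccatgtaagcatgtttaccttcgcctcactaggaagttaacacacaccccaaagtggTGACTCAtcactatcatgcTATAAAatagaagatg

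**Figure D5:**
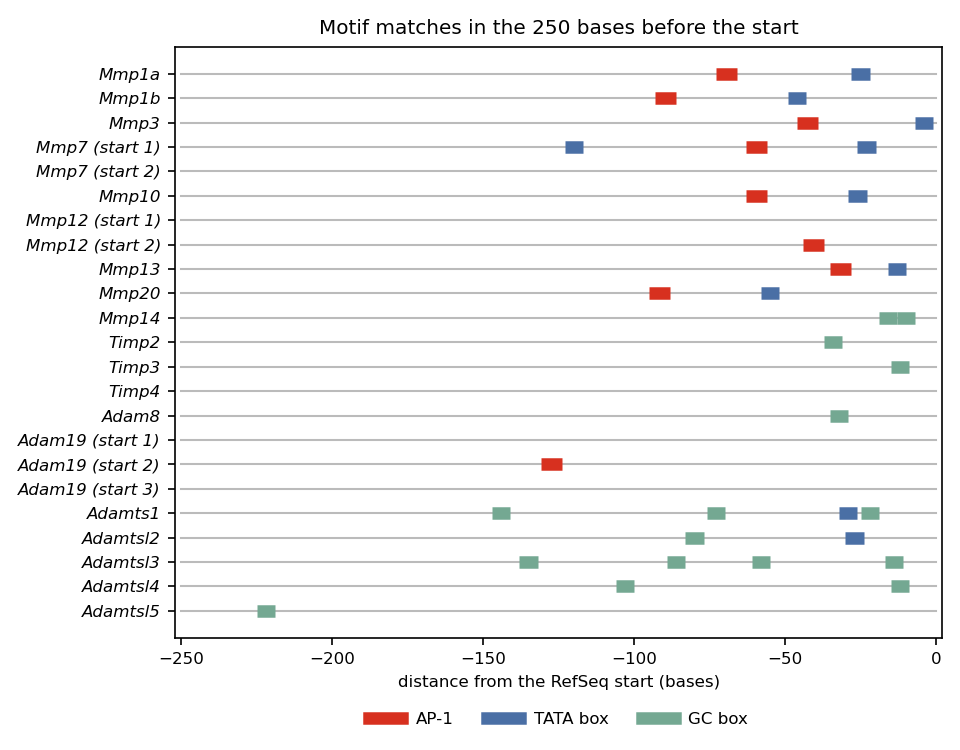
Matches to AP-1 (red), the TATA box (blue) and the GC box (green) in the 250 bases before the RefSeq start (x axis, bases from the start) for the 8 chromosome 9 MMPs and the other genes called in lung that have a RefSeq promoter; each grey line is a promoter. Red and blue boxes recur in the chromosome 9 rows, which hold no green box.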

How the data were processed

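RNA of 16 arrays was analysed, 4 in each of 4 groups (cerebellum or lung, vehicle or dexamethasone). The authors deposited log2 values made with RMA according to the submitters' processing notes, and for its settings and version the sources used here give nothing. RMA gives every probe set a value also where its transcript is not detected, and arrays give no read depth, so the number of arrays limits the precision. Of 45101 probe sets, 34945 carried 1 symbol and gave 18193 genes, of which 18032 took their symbol from RefSeq. Probe sets with several symbols (932) or none (9160) were left out. The brightest probe set over the 16 arrays stood for a gene.

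Fits used limma 3.58.1 in R 4.3.3 (a mean per group, eBayes, 12 residual degrees of freedom), with Benjamini-Hochberg adjustment over all genes and a threshold of 0.05. Contrasts were dexamethasone minus vehicle in each organ, the difference of these effects (lung minus cerebellum), and vehicle lung minus vehicle cerebellum. The fit was tested on simulated data. The members, the gene lists and the tests were chosen with earlier results of these data known.

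Named were, in each dexamethasone comparison, up to 8 called rises and 8 called falls by size. In the other comparisons up to 6 each way were named, and the 4 TIMPs, Mmp2, Mmp14, Adam10, Adam17 and Adamts1 always. Up to 4 called genes each way came from the further list of inhibitors and partners. Lung falls, Adamts12 in lung and genes called in lung only by a dimmer probe set, all beyond this rule, were named after their values were seen. Promoters came from RefSeq (GRCm38.p6). Alternatives were the mean of probe sets, each other probe set, dim genes left out, quantile normalization again, only the arrays compared, a robust variance trend, Xist as a covariate (sex is not given), and each array left out in turn. The labels give a single hybridization date, so no batch could be compared.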

Additional observations from a re-analysis of the deposited data

Results flagged for a closer look

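Among 132 groups of 4 arrays tested over 33 named genes, 7 held an array far from the other 3, where chance gives about 1 in 20 groups. The gap to the nearest array, as a share of the group's range, is given first. In vehicle cerebellum it was 0.862 for Adam17 (B79 at 9.03, others 8.79 to 8.82), 0.843 for Mmp24 (B79 at 10.35, others 10.02 to 10.07), 0.877 for Timp2 (B79 at 10.78, others 11.29 to 11.36) and 0.910 for Adamts7 (B80 at 5.88, others 4.85 to 4.94). In vehicle lung it was 0.868 for Adam22 (B19 at 6.83, others 7.0 to 7.03). In dexamethasone lung it was 0.921 for Timp3 (B46 at 12.48, others 11.72 to 11.78) and 0.881 for Adamts9 (B46 at 9.66, others 10.25 to 10.33). The mean correlation of B46 with the other arrays of its group, 0.980, was the lowest of the 16.

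The dexamethasone effect differed between lung and cerebellum in 17 genes by limma's interaction test, as log2 lung effect minus cerebellum effect. Values were negative for Adam12 (-2.52), Adamts4 (-1.72), Adamtsl3 (-1.65), Adamts5 (-1.23), Adam19 (-0.98), Mmp16 (-0.97), Adamts1 (-0.97), Timp2 (-0.93), Adamts8 (-0.85) and Mmp14 (-0.83). They were positive for Adamts12 (0.61), Timp3 (0.79), Adamtsl5 (0.82), Adamtsl2 (1.04), Adam8 (1.71), Adamtsl4 (2.04) and Timp4 (2.12).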

How the results depend on the processing

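Counts of called genes stayed within 1.5 times their value in lung, in the vehicle comparison and in the difference of effects under all alternatives, except that with dim genes left out the lung rises went from 8 to 5 and the genes lower in vehicle lung from 15 to 8, since 36 of the 68 genes are then not tested. In cerebellum, where 2 genes were called, 1 to 3 were called with single arrays left out and 4 with dim genes left out. Cerebellar rises numbered 1 in the main fit, 2 with the mean of probe sets and 3 with dim genes left out. They numbered 2 with only the cerebellar arrays and 0 to 2 with single arrays left out. Adamts4, the rise of the main fit, was not among them with the mean of probe sets or with only the cerebellar arrays. Among called results of named genes, directions turned only where other probe sets were used, alone or in a mean: Adamts12 in cerebellum stood at 0.04, Adamts5 in lung at 0.22, Mmp16 in lung at 0.31 and 0.13 and in the difference of effects at 0.32. For Adam10 in the vehicle comparison they stood at -0.32 and -0.10, and the mean of its probe sets at -0.01. The cause of these shifts was not tested. Changes that were not called, such as those of Timp2, Timp3 and Adam17 in cerebellum and of Adam10 and Adam17 in lung, took either sign over the alternatives. The differences of effects of Timp2 and Mmp16 were lost without any of 7 single arrays each, at -0.92 to -0.75 for Timp2 and -0.95 to -0.74 for Mmp16, and with the mean of probe sets. The lung call of Mmp16 was also lost without B19, B28, B31 or B46 and with only the lung arrays, and that of Mmp3 after quantile normalization again (0.27) and with only the lung arrays. No paired analysis was possible because no replicate number is shared between groups. Xist as a covariate changed no call of a named gene. RMA compresses the differences of dim genes, and no detection call was used.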
